A study of Mus musculus with 4 samples.

Results

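Expression of the genes that build the intestinal microvillus was examined in small intestine of 2 mice labelled HNF4 null and 2 control mice, with 1 array per animal. The genes were a list of 10, namely Vil1, Vill, Espn, Ezr, Myo1a, Pls1, Eps8, Cdhr2, Cdhr5 and Ush1c. A probe set, the group of probes that reports 1 transcript, was taken where the platform annotation gave exactly 1 of these symbols. This selected 11 probe sets of 8 genes, out of 20380 probe sets of 12393 genes, and all 11 passed the filter on dim probe sets. Myo1a, the brush border myosin that ties the actin core to the membrane, and Cdhr2, a cadherin at microvillus tips, had no such probe set in the annotation used and were not analysed here. Eps8 had 3 probe sets, Ezr had 2 and each other gene had 1.

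All 4 mice were 1 month old and all carried an HNF4 allele flanked by loxP sites. The null animals, 1 male and 1 female, had the genotype loxP/- with villin Cre, a transgene in which the villin promoter drives the recombinase in gut epithelium. The female control was loxP/+ with villin Cre. The male control was loxP/- without Cre. Between the controls, sex, the minus allele and Cre cannot be told apart, and the minus allele is shared by both null animals and the male control. HNF4 factors are nuclear receptors that regulate genes of gut and liver, and the labels do not say whether Hnf4a or Hnf4g was targeted. The labels name total RNA of small intestine without the segment and without a step that separates epithelium from muscle.

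Each absorptive enterocyte carries a brush border of microvilli, finger-like projections that hold digestive enzymes and transporters. A microvillus has a core of parallel actin filaments bundled by villin, espin and fimbrin, tied to the membrane by ezrin and by myosin 1a. Its tip holds actin regulators such as Eps8 and a complex of protocadherins with the scaffold harmonin, encoded by Ush1c, which links neighbouring microvilli to each other. Villin is a standard marker of gut epithelium. Its relative Vill, or villin-like, shares the gelsolin-type repeats of the family.

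The promoter windows of Vil1 and Vill are shown because the villin promoter drives Cre in this design, and because the 2 family members had differences of opposite sign in these data. These windows come from the reference genome and were not taken from the Cre transgene. They are RefSeq windows of build GRCm38.p6 on the plus strand, chr1:74409134-74409433 for Vil1 and chr9:119052528-119052827 for Vill. The 250 bases before the annotated start are in lower case and the 50 bases from the start are in capitals.
Vil1: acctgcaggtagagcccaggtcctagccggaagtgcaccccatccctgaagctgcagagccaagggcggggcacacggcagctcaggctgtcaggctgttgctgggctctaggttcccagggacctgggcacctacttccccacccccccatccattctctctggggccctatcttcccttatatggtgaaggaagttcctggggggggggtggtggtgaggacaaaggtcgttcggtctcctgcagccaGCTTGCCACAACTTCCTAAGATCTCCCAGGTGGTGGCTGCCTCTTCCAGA
Vill: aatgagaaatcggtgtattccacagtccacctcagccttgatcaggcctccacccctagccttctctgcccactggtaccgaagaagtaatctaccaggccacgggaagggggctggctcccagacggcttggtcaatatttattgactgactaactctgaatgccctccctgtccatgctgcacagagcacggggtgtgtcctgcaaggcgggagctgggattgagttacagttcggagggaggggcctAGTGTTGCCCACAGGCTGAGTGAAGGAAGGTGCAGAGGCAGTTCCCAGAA
Both windows were searched on both strands for 3 forms of the HNF4 binding motif, CAAAGTCCA, CAAAGTTCA and the direct repeat AGGTCANAGGTCA. No exact match to these motifs was found in either window, nor in the other windows of these genes. The search covered 11 windows of 9 genes, Eps8 having none. It allowed no mismatch, so sites that differ from these motifs at some bases were not counted. Of all 32851 windows of that length, 0.901% held at least 1 of the 3 motifs.

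The deposited intensities, which are linear values, had medians of 43.2 to 53.3 over the 4 arrays. Values were quantile normalized between arrays and taken to log2(intensity + 16), so a difference of 1 is a doubling, understated for dim probe sets. The male null stood furthest from the other arrays, with correlations across probe sets of 0.919 to 0.944 against 0.951 to 0.964 among the other 3 arrays. The targeted gene family does not separate the labels, since all 4 Hnf4a probe sets had null minus control differences above 0, from 0.08 to 0.32. The brightest Hnf4a probe set read 1136 in the male null and 1025 in the female null, against 1141 in the female control and 731 in the male control. Which stretch was deleted is not given in the sources used here, and these values do not check the labels.

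Null and control intestine were compared to ask how transcripts of the microvillus differ where HNF4 was targeted. No gene of the list passed the threshold, an adjusted p under 0.05 in limma with Benjamini-Hochberg adjustment over 15838 probe sets, against 0.0126% of all probe sets. The 8 genes ran from −0.56 for Espn to 1.14 for Vill on the log2 scale, with a median of −0.14 beside 0.002 over all 9558 genes tested. Of them, 5 were below 0 and 3 above, and Vill and Espn, 2 of 8, had an unadjusted p under 0.05, against 3.07% of all probe sets. Of all probe sets, 1.31% had such a p with a higher level in null animals, as Vill had, and 1.76% with a lower level, as Espn had. The genes were chosen with earlier results of these data known, so these counts only describe them and do not measure enrichment. Every adjusted p of these probe sets in limma was 1, so the values below are given with their intervals and none is called a change. In whole intestine, fewer epithelial cells and less RNA per cell cannot be told apart.

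**Figure D1:**
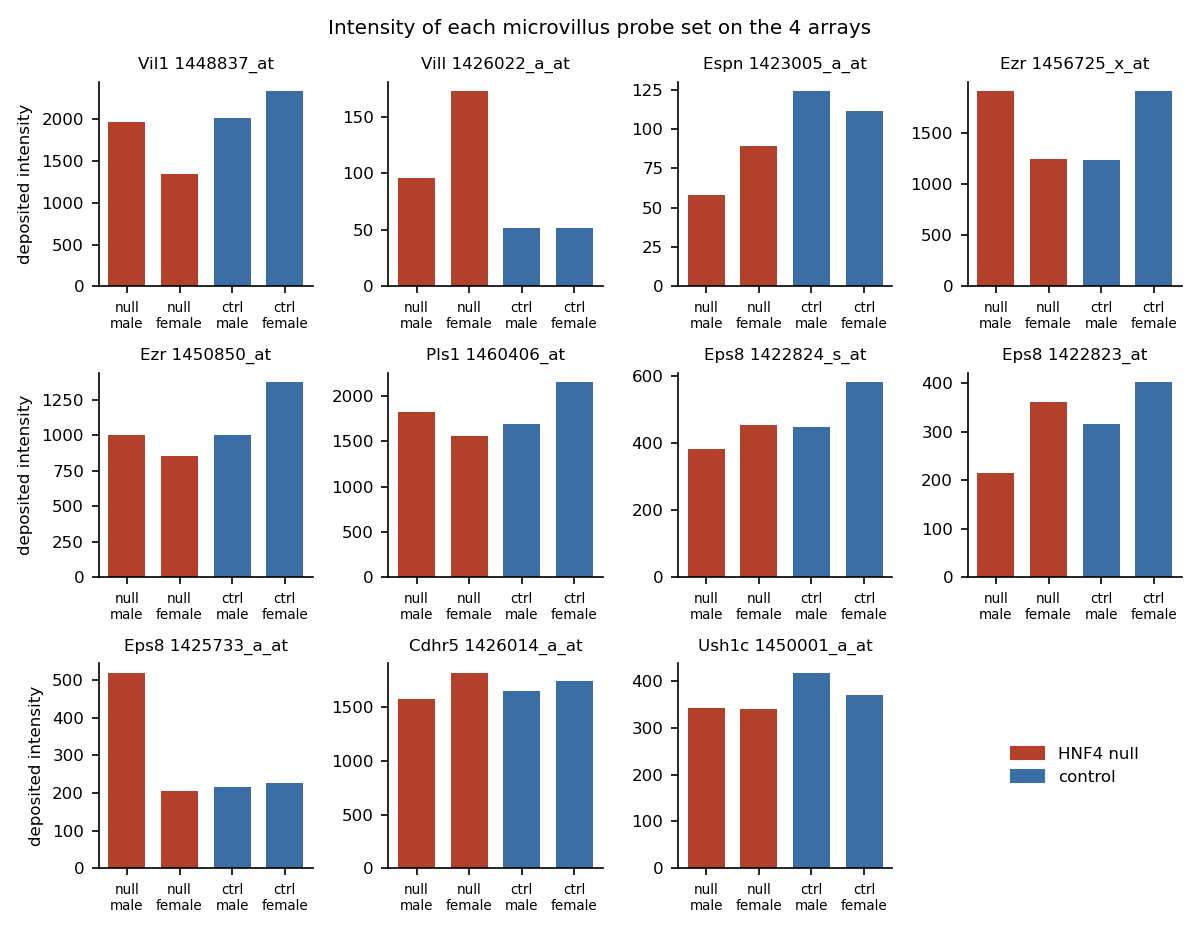
Deposited intensity (linear scale, arbitrary units) of each of the 11 probe sets, with 1 bar per array, null animals in red and controls in blue, labelled by group and sex. Both Vill bars of the null animals stand above both controls, both Espn bars stand below them, and Eps8 1425733_a_at is high in the male null alone at 518.

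Vil1 was below and Vill above the control level in both null animals, neither past the threshold. Vil1 encodes villin, which bundles actin in the core and severs it when calcium rises. Its probe set 1448837_at read 1971 in the male null and 1343 in the female null, against 2335 in the female control and 2021 in the male control. Both null animals were thus below both controls, although the male null was level with the male control and the gap lay in the females, between the lowest and the highest of the 4 animals. The normalized log2 level of Vil1 was 10.69 ± 0.36 in null animals and 11.07 ± 0.17 in controls (SD, n = 2 each). The difference of −0.38 (SE 0.19) had a 95% interval from −0.83 to 0.07 in limma. Between the males the Vil1 difference was −0.0005, and for the females it was −0.75. It was −0.624 without the male null, −0.119 without the female null and −0.253 without the female control. The female null also had the lowest summed intensity of 6 general epithelial markers, 11673, against 13479 to 14854 in the other 3 animals. Villin transcript was bright in every animal, the male control without Cre among them, whose normalized log2 level of 10.95 was the same to 2 decimals as that of the male null.

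Vill, whose product resembles villin, was the member with the greatest difference. Its probe set 1426022_a_at read 95.4 in the male null and 172 in the female null, against 51.8 in the female control and 51.6 in the male control. The controls lay within 1 unit of each other, close to the medians of their arrays, 50.2 for the female and 49.5 for the male. Without detection calls, it is not known whether these control values exceeded background. Both null animals stood above the controls, the female null furthest. That animal also had the highest sums of smooth muscle and fibroblast markers, given further on. The male null had the lowest fibroblast sum. Its smooth muscle sum lay between those of the controls as deposited and above both after normalization. The part of these cells in the Vill difference was not tested. The Vill log2 level was 7.21 ± 0.39 in null animals and 6.06 ± 0.01 in controls (SD, n = 2 each), a difference of 1.14 (SE 0.26) with a 95% interval from 0.53 to 1.76. This is 2.21-fold higher in null animals. The unadjusted p in limma was 0.00338 and the adjusted p was 1, and over the alternative settings that adjusted p ran from 0.0676 to 1. The Vill difference was 0.86 for the males and 1.42 for the females, and 0.772 to 1.41 over all alternatives. In size it exceeded the differences of 99.4% of all probe sets tested.

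Among the actin bundlers, Espn stood lower in both null animals and Pls1 did not separate the groups. Espn encodes espin, which bundles actin and sets how long microvilli grow. Its probe set 1423005_a_at read 58.4 in the male null and 89.0 in the female null, against 112 in the female control and 124 in the male control. The null animals were both below the controls, with the male null lowest, the reverse of the order seen for Vil1. The Espn log2 level was 6.49 ± 0.19 in null animals and 7.05 ± 0.11 in controls (SD, n = 2 each). The difference of −0.56 (SE 0.22, 95% interval −1.09 to −0.03), 1.47-fold lower in null animals, had an unadjusted p of 0.0425 and an adjusted p of 1 in limma. It was −0.77 for the males and −0.34 for the females, and −0.696 to −0.385 over all alternatives. The adjusted p of Espn over those alternatives ran from 0.217 to 1.

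Pls1 encodes fimbrin of the brush border, also called plastin 1, which packs actin filaments closely. Its probe set 1460406_at read 1818 in the male null and 1556 in the female null, against 2148 in the female control and 1689 in the male control. The male null lay between the controls, so the groups overlapped. The difference was −0.13 (SE 0.16), with a 95% interval from −0.51 to 0.25. The pairs pointed opposite ways, at 0.14 for males and −0.41 for females.

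Ezrin, encoded by Ezr, joins the actin core to membrane proteins, and its 2 probe sets differed in what they showed. On 1456725_x_at, a class of probe set whose probes can cross-hybridise, Ezr read 1904 in the male null and 1242 in the female null, against 1903 in the female control and 1234 in the male control. Each group held 1 high and 1 low animal, at nearly the same levels. The log2 difference was 0.03 (SE 0.26), with an interval from −0.58 to 0.65. On 1450850_at Ezr read 1002 in the male null and 853 in the female null, against 1373 in the female control and 1003 in the male control. Here the female null was lowest and the male null nearly equalled the male control, with a difference of −0.32 (SE 0.19, interval −0.78 to 0.15). The female control exceeded the male control on both Ezr probe sets, while the null animals differed far more on the first than on the second.

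**Figure D2:**
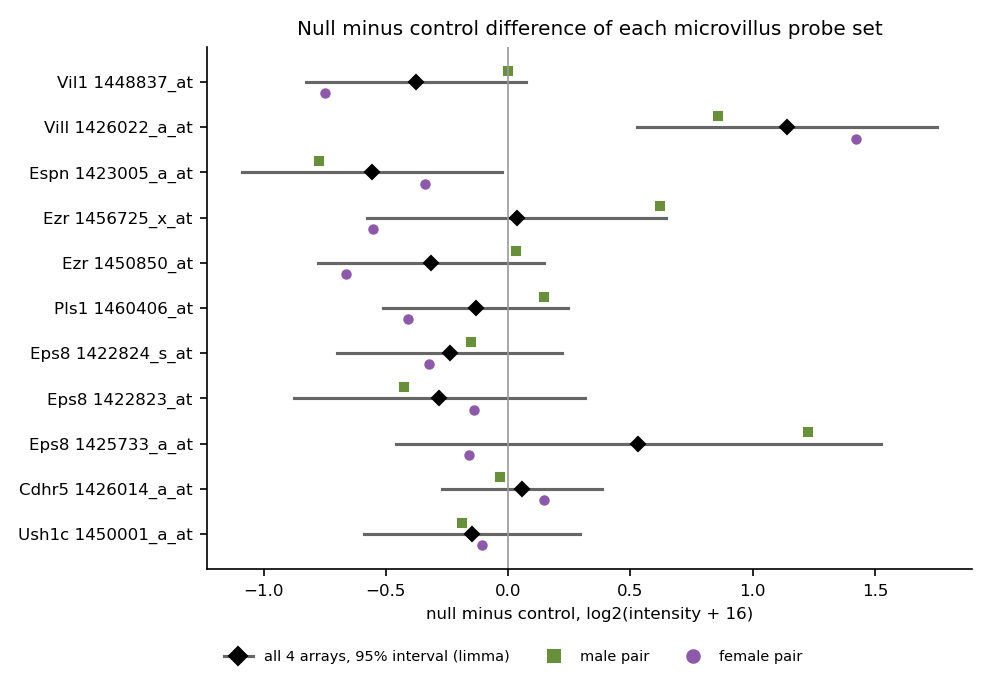
Null minus control difference on the log2(intensity + 16) scale for each probe set, with diamonds and lines for the limma estimate and its 95% interval over 4 arrays, squares for the male pair and circles for the female pair. The interval lies above 0 for Vill (0.53 to 1.76) and below 0 for Espn (−1.09 to −0.03), and covers 0 for the other 9 probe sets.

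Eps8, which caps and bundles actin at the microvillus tip, was measured by 3 probe sets that disagreed on the male null. Its brightest probe set, 1422824_s_at, read 383 in the male null and 454 in the female null, against 580 in the female control and 446 in the male control. The groups overlapped, with the male null lowest and the female control highest, and the difference was −0.24 (SE 0.19, interval −0.70 to 0.22). Eps8 probe set 1422823_at read 215 in the male null and 360 in the female null, against 401 in the female control and 316 in the male control. It had the same lowest and highest animals and a difference of −0.28 (SE 0.25). The remaining probe set, 1425733_a_at, read 518 in the male null and 206 in the female null, against 227 in the female control and 217 in the male control. Here the male null, the lowest animal on the other 2, was more than double every other animal, and the other 3 animals were close together. The difference of 0.53 (SE 0.42, interval −0.46 to 1.52) was 1.225 for the males and −0.16 for the females. The suffix of this Eps8 probe set marks one that can read alternative transcripts of its gene. The probe sets of Vill, Espn, Cdhr5 and Ush1c have the same suffix, and whether transcripts of Eps8 differ was not tested.

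Transcripts of the tip adhesion complex, Cdhr5 and Ush1c, had small differences with intervals that covered 0. Cdhr5, the protocadherin that pairs with Cdhr2 across neighbouring microvilli, read 1573 in the male null and 1815 in the female null, against 1740 in the female control and 1650 in the male control. The controls lay between the null animals, and the difference was 0.06 (SE 0.14) with a 95% interval from −0.27 to 0.38. Ush1c, which encodes harmonin and anchors those cadherins to the core, read 342 in the male null and 339.5 in the female null, against 370 in the female control and 416 in the male control. The deposited null values were both lower, but after normalization the male null at 8.56 exceeded the female control at 8.55 on the log2 scale. The Ush1c difference was −0.15 (SE 0.18), with an interval from −0.59 to 0.29, and was −0.19 for the males and −0.11 for the females.

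Both null arrays lay below both controls for 2 of the 8 genes, Vil1 and Espn, against 16.2% of all probe sets, and above them for 1, Vill, against 13.5%. Vil1, Espn, Eps8 and Ush1c, 4 of 8, were lower in both sex pairs, against 25.6% of all probe sets, and 3 of 8, Ezr, Pls1 and Cdhr5, had opposite signs in the 2 pairs, against 51.6%. Vil1 enters both of these lower counts although its difference between the males was −0.0005, with the male null level with the male control. Eps8 counts by its brightest probe set, while its probe set 1425733_a_at was at 1.225 for the males. Of all 9558 genes tested, 1450 had both null arrays below both controls and 1381 had them above. Of the same genes, 2307 were lower in both pairs and 4930 had opposite signs. The median over the 8 genes was −0.02 for the males and −0.33 for the females. Over 3 arrays it was −0.213 without the male null, −0.0865 without the female null, −0.298 without the male control and −0.0117 without the female control. The median of −0.14 was within the SD of 0.16 that the per-array median had between animals of a group.

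**Figure D3:**
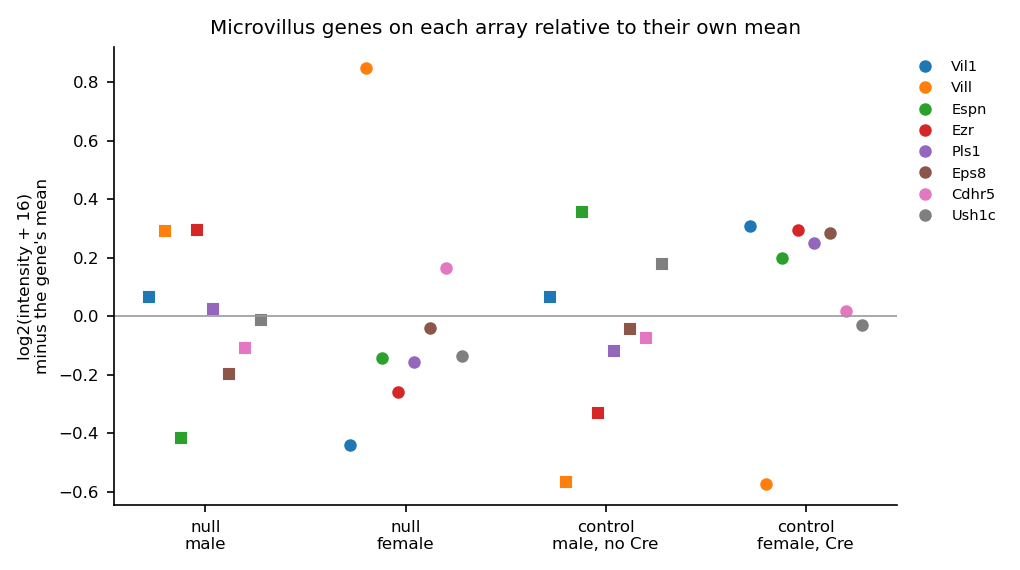
Log2(intensity + 16) of each gene's brightest probe set minus the gene's own mean over the 4 arrays, by animal, with squares for males and circles for females. In the female null Vill is highest at 0.85 and Vil1 lowest at −0.44, and in the female control Vil1, Ezr, Eps8, Pls1 and Espn all lie above 0.

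The 8 genes did not share 1 profile over the animals. The root mean square distance between the centred log2 profile of Vil1 and that of another member over the 4 arrays was smallest for Pls1 at 0.173, and 478 of 9557 genes lay nearer to Vil1 than Pls1 did. It was 0.238 for Ush1c, 0.246 for Ezr and for Eps8, 0.323 for Espn, 0.354 for Cdhr5 and 0.851 for Vill, beside a median of 0.34 over all genes. The 5 genes nearest to Vil1 were Srxn1, which encodes sulfiredoxin, at 0.0289, the imprinted gene Peg3 at 0.0355, Lhb at 0.0404, Ccdc85a at 0.0405 and the cytokine gene Il17b at 0.045. With 4 arrays these distances only describe the profiles.

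Other genes of the microvillus were described from a list of 41, of which 37 had a probe set of their own and 36 passed the filter. None passed the threshold in limma, and 2, Scin and Avil, had an unadjusted p under 0.05, against 3.07% of all probe sets. Of the 36, 22 were below 0 and 14 above, with a median of −0.03 on the log2 scale. Both null arrays lay below both controls for 8 of them, against 16.2% of all probe sets, and above for 2, against 13.5%, and 18 had opposite signs in the 2 sex pairs, against 51.6%.

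Both of those genes belong to the villin and gelsolin superfamily. Scin encodes scinderin, an actin-severing protein of this family, and read 571 in the male null and 576 in the female null, against 877 in the female control and 847 in the male control. The animals of each group were close together and the groups far apart, with a difference of −0.55 (SE 0.15), −0.53 for the males and −0.57 for the females. Its unadjusted p was 0.00809 and its adjusted p was 1 in limma. Avil, which encodes advillin, a close relative of villin, read 139 in the male null and 93.3 in the female null, against 67.5 in the female control and 48.5 in the male control. The male control reading was below the median of its array, 49.5, and without detection calls it is not known whether it exceeded background. Both null animals were above both controls, with a difference of 0.87 (SE 0.30), 1.40 for the males and 0.33 for the females. Its unadjusted p was 0.025 and its adjusted p was 1 in limma. The other 4 of this superfamily lay between −0.07 and 0.20, with Flii at 0.20 and Gsn, gelsolin itself, at 0.05. The whole group of 6 had a median of 0.04, so villin relatives stood on both sides of 0.

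The remaining groups held smaller differences. The 5 genes of apical membrane traffic, which deliver enzymes to the brush border, were all below 0 with a median of −0.31, Rab8a at −0.32 and the fusion protein gene Stx3 at −0.06. Of 4 other myosins tested all were below 0, with Myo7b, the motor of the adhesion complex, at −0.18 and Myo1d at −0.04. Calml4, a calmodulin-like partner of Myo7b, was at −0.16, with both null arrays below both controls. Of the 7 genes of the tip and core, 4 were below 0, among them cytoplasmic gamma actin, Actg1, at −0.16, with beta actin, Actb, at 0.05. The 5 genes of ezrin relatives and apical scaffolds had a median of −0.08, with the ezrin partner Slc9a3r1 at −0.08 and Pdzk1 at −0.29. The 3 other bundlers ran from −0.11 to 0.10, with the leukocyte plastin gene Lcp1 at 0.10 and Fscn1 at −0.02. In the terminal web, the actin and myosin mat under the microvilli, 4 of 5 genes were above 0, with Myh9 at 0.07 and Sptbn1 at 0.02. Myh14 of that group, singled out after its values were seen, was at −0.44, with 0.20 for the males and −1.08 for the females.

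**Figure D4:**
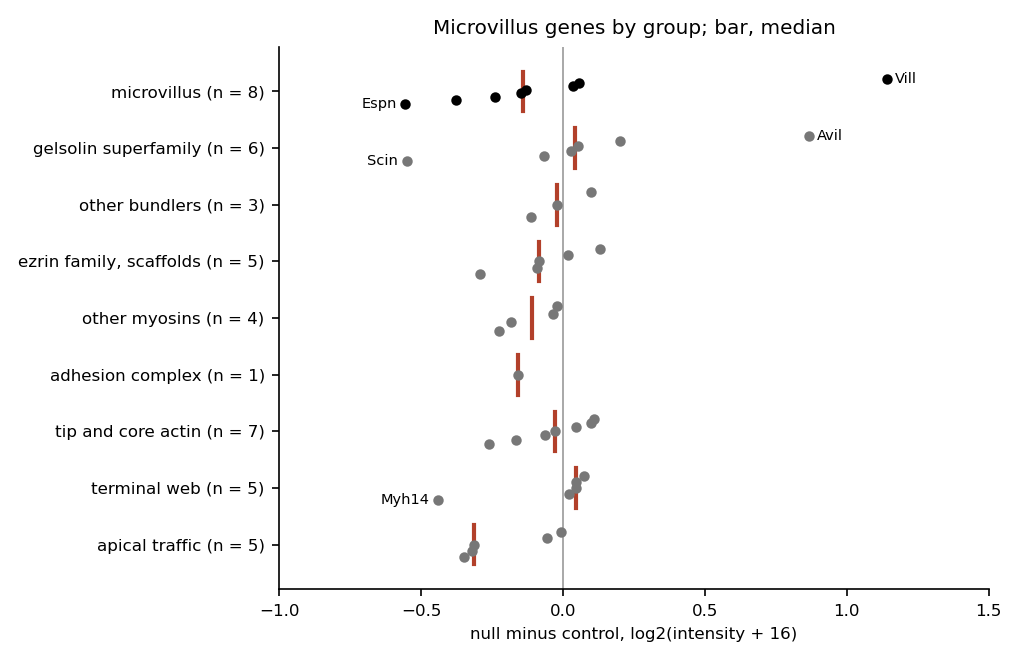
Null minus control difference on the log2(intensity + 16) scale, with 1 point per gene tested, for the 8 genes (black) and the other genes of the microvillus by group (grey), red bars marking group medians. Vill at 1.14 and Avil at 0.87 lie furthest above 0, and Espn at −0.56 and Scin at −0.55 furthest below.

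Levels of cell type markers also differed between animals. Summed intensity of 6 general epithelial genes was 13479 in the male null and 11673 in the female null, against 14854 in the female control and 13500 in the male control, and that of the 8 microvillus genes was 8144 and 7011 in the same null animals, against 9240 and 7632 in the same controls. The female null was lowest and the female control highest on both sums. Of the epithelial genes 5 of 6 were below 0 with a median of −0.14, equal to 2 decimals to that of the microvillus genes. All 4 measured villus enterocyte markers were below 0, with a median of −0.249, further from 0 than that of the microvillus genes. Their summed intensities were 11495 to 13013 in null animals and 14399 to 14577 in controls, while Alpi and Sis had no probe set under the rule.

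Smooth muscle genes, 8 of 8 measured, summed to 2295 in the male null and 3041 in the female null, against 2360 in the female control and 2291 in the male control. Fibroblast genes, 5 of 5 measured, summed to 1544 in the female null, against 730 to 937 in the other 3 animals. The female null, lowest in Vil1 and highest in Vill, was highest in these 2 lists. The male null, also above both controls in Vill, was lowest in fibroblast genes at 730. Its smooth muscle sum lay between those of the controls as deposited. After normalization that sum was 2370, against 2332 in the female control and 2270 in the male control. By gene on the log2 scale, all 8 smooth muscle genes were above 0 (median 0.255), as were all 5 fibroblast genes (median 0.27). For the males these medians were −0.04 and 0.0001, and for the females 0.683 and 0.695. Both null arrays lay above both controls for 3 smooth muscle and 2 fibroblast genes, against 13.5% of all probe sets. T cell genes, 5 of 5, summed to 563 to 716 in null animals and 919 to 1039 in controls, and pancreatic acinar genes, 4 of 5, to 885 in the male null, against 511 to 585 in the other 3 animals. Crypt and cycling genes, 4 of 5, summed to 389 to 526 in null animals and 406 to 555 in controls. No measured marker was at 0 on any array, and the part of these cell types in the differences was not tested.

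Values were also taken relative to the mean of the 6 epithelial genes on each array, a setting added after the data were seen, which moved the median of all probe sets to 0.11. On that scale Vill differed by 1.26, Espn by −0.435, Vil1 by −0.255 and the median of the 8 genes by −0.0191. None of them passed on it either, with a lowest adjusted p of 0.96 in limma, for Vill.

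**Figure D5:**
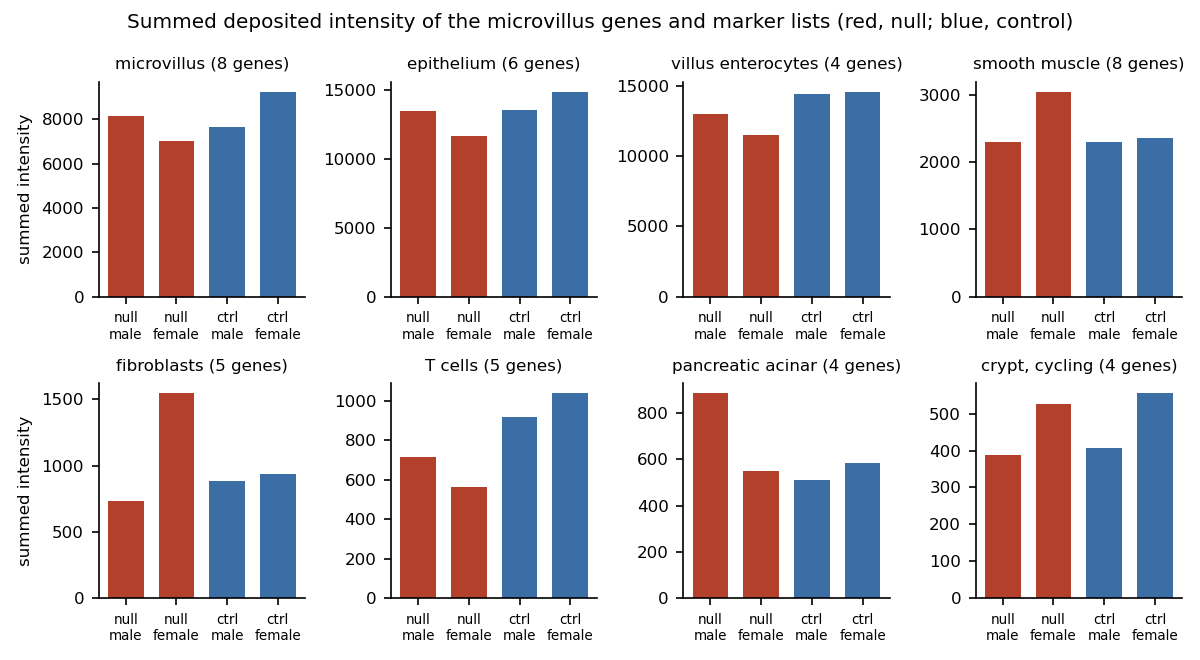
Summed deposited intensity of the 8 microvillus genes and of 7 marker lists, with 1 bar per array, null animals in red and controls in blue, labelled by group and sex. The female null has the lowest epithelial sum (11673) and the highest smooth muscle (3041) and fibroblast (1544) sums.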

How the data were processed

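Total RNA of small intestine from 4 mice was isolated with a Qiagen RNeasy kit, labelled with biotin and hybridised to Affymetrix arrays, per the labels' protocols. The authors deposited linear intensities, 1 for each probe set of an array. Which software made them, and with what background correction and scaling, is not given in the sources used here. There are no detection calls, so the precision of a value rests on the small number of arrays. Probe sets were named by the platform annotation, and the Entrez identifiers of all 11 probe sets, which belong to 8 genes, matched a gene table of GRCm38.p6. Probe positions were not used.

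After leaving out 64 control probe sets, the other 22626 were quantile normalized, because array medians differed by 0.23 on the log2 scale. Values under 0 were set to 0, 16 was added and log2 taken. The dimmest 30% by mean were left out, which removed probe sets under an intensity of 27.1 and kept 15838. The null and control groups were compared in R 4.3.3 with limma 3.58.1 (lmFit, eBayes with an intensity trend, two-sided, Benjamini-Hochberg adjustment, threshold 0.05), with 2 residual and 4.67 prior degrees of freedom. The fit was tested on simulated data. Where a gene had several probe sets, the brightest stands for it. All probe sets of the listed genes are named. Of the other microvillus genes, those named had an unadjusted p under 0.05 or were among the brightest, at most 2 a group. The genes and lists were chosen with earlier results of these data known. The labels give no pairing, so pairs by sex are shown as values and sex was tried as a block. No per-sample column was left unused.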

Additional observations from a re-analysis of the deposited data

Results flagged for a closer look

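For 5 of the 11 probe sets the male and female pairs had differences of opposite sign, null minus control on the log2 scale. Each pair is 1 animal against 1, and the control was loxP/- without Cre for the males and loxP/+ with Cre for the females. A difference between the pairs therefore cannot be assigned to sex, and it was not tested. Opposite signs were seen for 51.6% of all probe sets. Eps8 1425733_a_at was at 1.225 in males and −0.16 in females, with the male null the one high array. Ezr was at 0.62 and −0.55 on 1456725_x_at and at 0.0319 and −0.66 on 1450850_at, males before females. Pls1 was at 0.14 in males and −0.41 in females, and Cdhr5 at −0.0327 in males and 0.15 in females.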

How the results depend on the processing

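None of the 8 genes passed the threshold in limma under any of 13 alternative settings, and their lowest adjusted p was 0.0676, for Vill without the male null. Nor did any of the other microvillus genes tested, whose lowest adjusted p was 0.151, for Avil without the female null. Of 104 values for single genes under the alternatives, 99 kept their direction and 5 turned, all of genes with small differences. Cdhr5 turned to −0.00377 with no normalization between arrays. With 1 array left out, Cdhr5 ran from −0.0831 to 0.191, Ezr from −0.273 to 0.348 and Pls1 from −0.322 to 0.0526. Vil1, Vill, Espn, Eps8 and Ush1c kept their direction in every setting run. These values are for the brightest probe set of each gene. The direction of Eps8 depends on that choice, since its probe set 1425733_a_at was at 0.53 and its brightest at −0.24.

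The median over the 8 genes stayed below 0, from −0.298 to −0.0117. The median over the 36 other microvillus genes was −0.128 to 0.0229 with 1 array left out and 0.0886 relative to the epithelial genes. The number of probe sets called was 2, with 1 when the dimmest 50% were left out, 0 without an intensity trend (463 with an unadjusted p under 0.05), 34 with sex as a block, and 0 to 30 with 1 array left out. The animals share no replicate numbers, so the block by sex is the one paired fit that was run. In that fit the male and female controls also differed in the minus allele and in Cre.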
